A study of Homo sapiens with 8 samples.

Results

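ACVR2A and INHBB, which encode a receptor and a ligand of activin signalling, were followed through every peak that an RNA immunoprecipitation of the RNA-binding protein QKI7 listed for them. All rows with either gene name in the 4 deposited peak lists were taken, 12 for ACVR2A and 5 for INHBB, of 42083 rows for 6520 genes in all. Both genes had been picked with results of these lists known, ACVR2A for its high fold with either guide and INHBB for a higher fold after METTL1 knockout, so the values that chose them are given as a description with no test.

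The cells were HepG2, a human liver cancer line, that carried Cas9 and a lentiviral 3 x Flag-QKI7 transgene in every group. METTL1, which with its partner WDR4 writes 7-methylguanosine, was depleted with a guide RNA in one arm (sgMETTL1). The other arm carried the control guide (sgNS), and GFP-positive cells were kept. RNA cross-linked by UV was recovered with a Flag antibody, so the binding measured is that of the overexpressed, tagged protein. The 8 samples comprised input and immunoprecipitated (IP) RNA in 2 replicates per guide, and every IP was set against its own input to give 1 list. Whether the guide cells were clones or pools, and whether replicates were separate cultures, is not given in the labels. Any p-value for a difference between the guides therefore measures only the spread between these lists. The p-value that the authors deposited for a peak belongs to 1 list and does not measure that spread. METTL1 and WDR4 had no peak in any list, so the knockout was not checked here. Of 11 hepatocyte markers, 5 had a peak in all 4 lists, among 6 with a peak in any (ALB, APOB, SERPINA1, FGA, FGB and HNF4A), and none of the 5 fibroblast and 3 endothelial markers had one. Of 4 blood cell markers, LYZ had a peak in all 4 lists and HBB in some. A peak shows recovery with the Flag antibody and not the level of an mRNA.

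Activins are dimers of inhibin beta subunits, and they belong to the TGF-beta family. The ligand binds a type II receptor kinase such as ACVR2A or ACVR2B, which phosphorylates a type I receptor. The type I receptor in turn phosphorylates SMAD2 and SMAD3, which enter the nucleus with SMAD4. INHBB encodes the beta B subunit, from which activin B and inhibin B are built. In the liver, activins are known as restraints on hepatocyte growth, and activin B is also known to induce the iron hormone hepcidin. QKI proteins bind RNA through a KH domain and the adjoining QUA2 region, and QKI7 is an isoform that differs from others in its C-terminal tail.

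The ACVR2A peaks all lay at the 3' end of the gene. On the plus strand of chromosome 2 (GRCh38), RefSeq places ACVR2A at chr2:147844517-147930822, and the 12 peaks fell between 147927411 and 147930827. The last peak of every list ended 5 bases past the RefSeq gene end. Each peak was a single exon block, and no peak of another gene overlapped any of them on that strand. Transcript models were not used here, so whether a base is coding or untranslated was not determined.

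The strongest ACVR2A peak ranked among the top 20 peaks of each list by the authors' fold, the enrichment of IP over input that they deposited for each peak. In replicate 1 of sgNS it spanned 1799 bases (147927621 to 147929419) at 308-fold, rank 6 of 11562 peaks. In replicate 2 of sgNS it spanned 3177 bases (147927651 to 147930827) at 195-fold, rank 19 of 11038. Replicate 1 of sgMETTL1 had 2188 bases (147927651 to 147929838) at 174-fold, rank 16 of 10095, and replicate 2 had 1769 bases (147927651 to 147929419) at 161-fold, rank 16 of 9388. The start was the same base in 3 of the 4 lists, and 1769 bases were common to the strongest peak of all 4.

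These were wide as well as strong peaks. Only 28 peaks of replicate 2 of sgNS (0.254%) were at least as wide as the ACVR2A peak there. In the other lists the share of peaks at least as wide ran from 0.783 to 1.95%, whereas the median peak of a list held 240 to 270 bases.

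**Figure D1:**
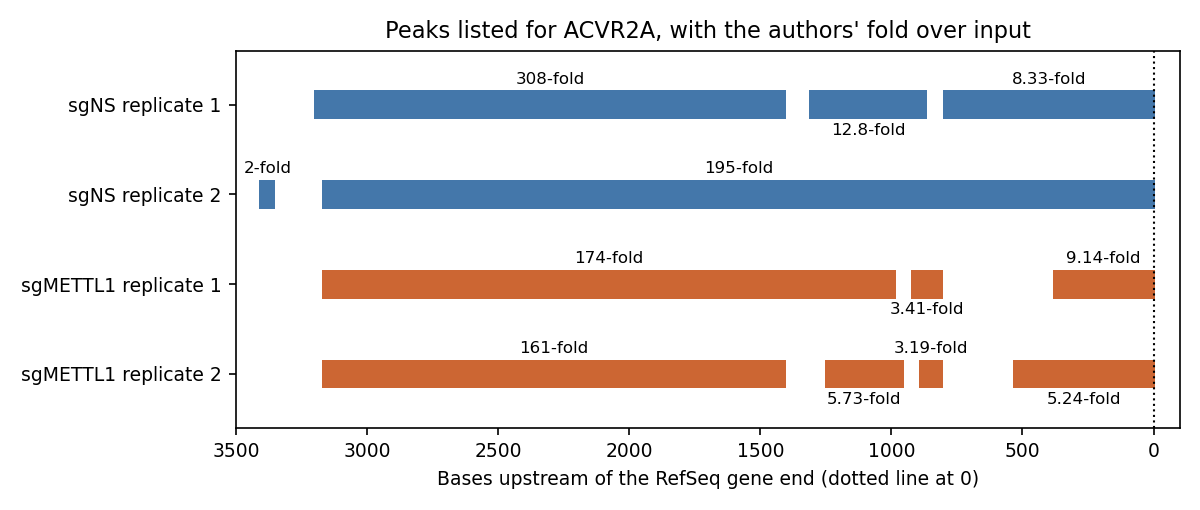
Each bar is 1 listed ACVR2A peak, drawn by its distance in bases from the RefSeq gene end (horizontal axis, gene end at 0), with 1 row per peak list and the authors' fold printed at each bar. The strongest peak starts 3172 bases from the end in 3 lists and 3202 bases in the first sgNS list, and the weaker peaks lie between it and the gene end, apart from the 2-fold peak of sgNS replicate 2, which lies upstream of it.

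Downstream of the strong peak the lists cut the transcript differently. Replicate 1 of sgNS listed a middle peak of 450 bases (147929509 to 147929958) at 12.8-fold and a terminal peak of 810 bases (147930018 to 147930827) at 8.33-fold. Replicate 2 of sgNS joined all of this to the strong peak, so its 195-fold covers bases that the other sgNS list gave at 8.33 to 308-fold. A further peak of 61 bases at 2-fold (147927411 to 147927471) stood upstream in that list only.

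With sgMETTL1 the same stretch was listed in shorter pieces. In replicate 1, a peak of 121 bases (147929898 to 147930018) stood at 3.41-fold and a terminal peak of 390 bases (147930438 to 147930827) at 9.14-fold. In replicate 2, peaks of 300 bases (147929569 to 147929868), 91 bases (147929928 to 147930018) and 540 bases (147930288 to 147930827) stood at 5.73-fold, 3.19-fold and 5.24-fold. The weaker peaks of both guides therefore had folds between 2 and 12.8, far under the 161 to 308 of the strong peak.

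ACVR2A peaks covered 3059 and 3238 bases in the sgNS lists against 2699 and 2700 bases after METTL1 knockout. A covered length that was lower in both sgMETTL1 lists than in both sgNS lists was the rule, held by 2441 of the 4150 genes with a peak in all 4 lists (58.8%), whereas 154 (3.71%) had the reverse. Of 3268 bases in any list, 2461 were in all 4, 329 in 3, 387 in 2 and 91 in 1. The largest stretch held by both sgNS lists and by neither sgMETTL1 list was 269 bases (147930019 to 147930287), in the gap before the terminal peak of each sgMETTL1 list. In sgNS it lay inside the terminal peak of replicate 1 and the joined peak of replicate 2. The sgMETTL1 lists were also shorter as a whole and had narrower and less significant peaks, with 10095 and 9388 peaks against 11562 and 11038 and a median -log10 p of 7.42 and 7.98 against 10.8 and 10.8. The part of this in the ACVR2A gap was not tested.

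The -log10 p of the strong peak was 1860 and 1730 in the sgNS lists against 964 and 1010 after knockout. A largest -log10 p that was lower with sgMETTL1 without overlap was held by 3275 of the 4150 genes (78.9%), so most genes had this order. Within each list these values held nearly the same place, at the 0.765th, 0.824th, 0.901st and 0.964th percentile of all peaks by p, where 0 is the strongest. By fold, among the 4150 genes with a peak in all 4 lists, ACVR2A held percentiles of 0.145 and 0.458 in the sgNS lists, and after knockout 0.386 in either replicate. The sgMETTL1 values lay between the 2 sgNS values, so the ranks of the guides overlapped, although the folds themselves (308 and 195 against 174 and 161) did not. Deposited folds that were lower with sgMETTL1 without overlap were held by 37.7% of the 4150 genes. No source states a common scale of folds between lists, and comparisons were therefore made on ranks within a list.

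INHBB had far weaker peaks, also near the 3' end. RefSeq places the gene at chr2:120346136-120351803 on the plus strand, and its 5 peaks fell between 120350879 and 120351687. They were single blocks of 61 to 180 bases, with no peak of another gene on them.

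Replicate 1 of sgNS listed 1 INHBB peak of 180 bases (120351478 to 120351657) at 4.13-fold and a p of 1.2e-05. Replicate 2 of sgNS listed 151 bases (120351388 to 120351538) at 3.36-fold and a p of 6e-05, with a second peak of 61 bases (120350879 to 120350939) at 2.39-fold and a p of 0.0019. Replicate 1 of sgMETTL1 listed 61 bases (120351448 to 120351508) at 21.3-fold and a p of 0.00034, and replicate 2 listed 120 bases (120351568 to 120351687) at 16.7-fold and a p of 0.00055. The fold was thus higher in both sgMETTL1 lists than in either sgNS list, and the smallest p-value of the gene was weaker in both. That order of p was held by 3275 of the 4150 genes with a peak in all 4 lists (78.9%).

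**Figure D2:**
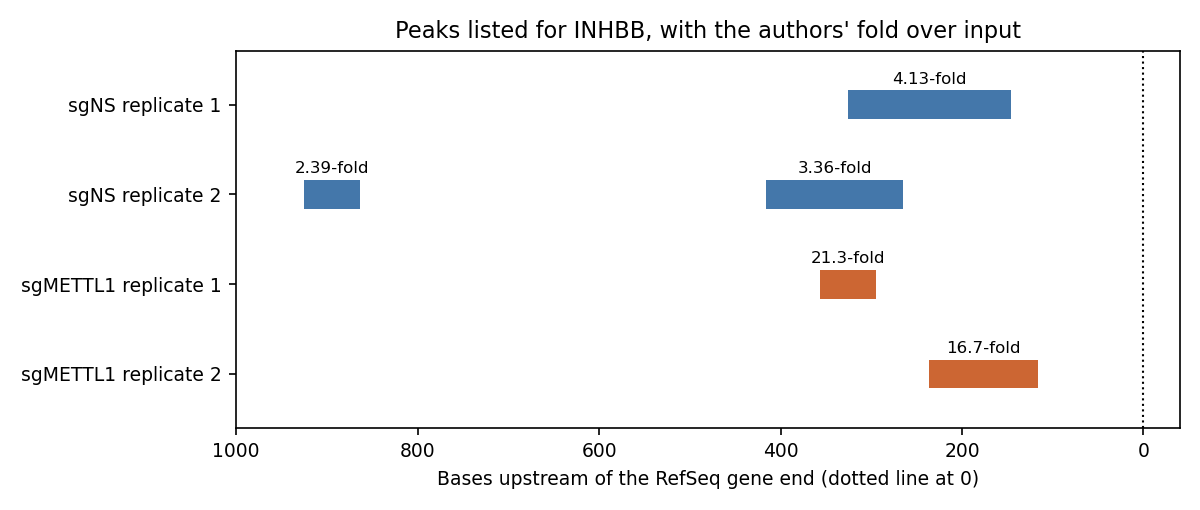
Each bar is 1 listed INHBB peak by its distance in bases from the RefSeq gene end (horizontal axis, gene end at 0), with 1 row per peak list and the authors' fold at each bar. The sgMETTL1 peaks, at 21.3-fold and 16.7-fold, do not overlap each other, and each overlaps the first sgNS peak.

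Matched by position, the higher INHBB folds did not come from one shared stretch. The peaks of the sgMETTL1 lists shared no base and were 59 bases apart. The peaks nearest the gene end in the sgNS lists shared 61 bases. The sgMETTL1 replicate 1 peak lay wholly within the sgNS replicate 2 peak and shared 31 bases with sgNS replicate 1, whereas the sgMETTL1 replicate 2 peak shared 90 bases with sgNS replicate 1 and none with sgNS replicate 2. No INHBB base was in all 4 lists, and 31 of 361 (120351478 to 120351508) were in 3. Over the 4150 genes, the strongest peaks of the sgMETTL1 lists shared no base for 767 (18.5%), and those of the sgNS lists for 557 (13.4%).

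By rank, INHBB moved in opposite directions under the 2 measures. By fold among the 4150 genes it held percentiles of 80.8 and 85.8 in the sgNS lists against 20.3 and 24.1 after knockout. By p the percentiles were 96.3 and 97.0 against 97.7 and 98.0, so it was near the weak end of every list. A fold rank that was higher in both sgMETTL1 lists than in both sgNS lists was held by 832 of the 4150 genes (20.0%), and 942 (22.7%) had the reverse. INHBB had been chosen for its higher fold. Of the 832 genes, 73 (8.77%) also had a lower p rank with sgMETTL1 without overlap, and INHBB was 1 of them.

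The FDR of the INHBB peaks crossed between the guides at a stricter limit. It was 0.0115% and 0.0562% for the sgNS peaks nearest the gene end and 0.661% and 0.603% for the sgMETTL1 peaks. At an FDR of at most 0.1%, INHBB was therefore in both sgNS lists and in neither sgMETTL1 list, as were 369 of 5658 genes with any peak at that limit (6.52%), while 41 (0.725%) were in both sgMETTL1 lists alone. At the authors' own limit INHBB was in all 4 lists.

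The fold and p of INHBB in replicate 1 of sgMETTL1 were shared by many peaks. In that list 78 peaks, INHBB among them, had exactly the fold of 21.3 and the -log10 p of 3.47, over peaks of 59 to 181 bases. The sgNS peaks near the gene end each had a fold and p in common with 3 other peaks of their list (4 in all), and the sgMETTL1 replicate 2 peak shared its pair of fold and p with no other. Its fold alone was shared, since other genes of that list also had a strongest fold of 16.7. A width of 61 bases was held by 617 peaks of replicate 1 of sgMETTL1, and 98.3% of its peaks were at least that wide.

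**Figure D3:**
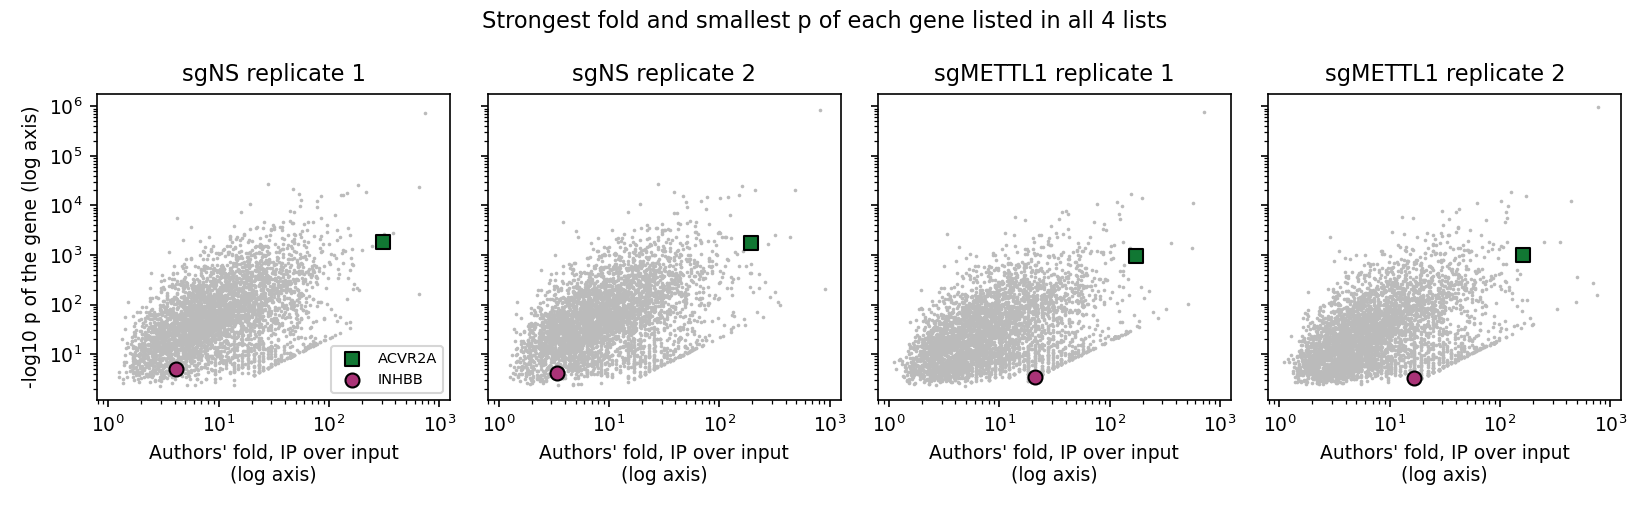
Each grey point is 1 of the 4150 genes with a peak in all 4 lists, by its strongest fold (horizontal, log axis) and its largest -log10 p (vertical, log axis), with 1 panel per list. ACVR2A (square) is at the strong end of both axes in every list, and INHBB (circle) stays near the lower edge by p while its fold is 4.13 and 3.36 in the sgNS lists against 21.3 and 16.7 in the others.

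The 5 genes whose rank scores over the 4 lists were nearest to each of these genes were also found. The rank score is the normal score of the fold's rank within a list, and nearness was the Euclidean distance over 4 lists. For ACVR2A they included ZNF43 (distance 0.309), MBD2 (0.321), ZNF213 (0.44) and RIPPLY3 (0.531). MBD2, which encodes a protein that binds methylated DNA, had folds of 183, 160, 157 and 127 in the order sgNS 1, sgNS 2, sgMETTL1 1 and sgMETTL1 2. The strongest peak of each of these 4 genes shared bases in every pair of lists and held 1047 to 3284 bases. For INHBB the nearest were SOX6 (0.241), HMGB3 (0.504), GLTSCR1 (0.58), ITFG1 (0.592) and PDE4A (0.632). SOX6, a transcription factor gene, had folds of 3.95 and 3.52 against 16.8 and 19.4, and its strongest sgMETTL1 peaks likewise shared no base. HMGB3, with 4.63 and 4.86 against 21.3 and 20.8, had strongest peaks that shared bases in every pair of lists. In GLTSCR1, ITFG1 and PDE4A the strongest peaks of the sgMETTL1 lists also shared bases, unlike those of INHBB and SOX6.

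The rest of the pathway was described by a list of 76 other genes of activin, BMP and TGF-beta signalling. Of these, 42 had a peak in some list and 33 in all 4. That is 78.6% of those with any peak, beside 63.7% of all 6520 genes with any peak. The difference between the guides was tested with limma on the rank scores of the 4150 genes. At an FDR of 5% limma called 0 of them (0.0%), and 408 (9.83%) had an unadjusted p under 0.05. Of the 33 pathway genes, limma called 0, and their smallest adjusted p was 0.325. An unadjusted p under 0.05 was reached by 7 (21.2%), 5 of them higher and 2 lower with sgMETTL1, where 5.11% and 4.72% of all genes tested were. The median score difference was 0.03 over the pathway genes against -0.02 over all genes tested.

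Of 16 other ligand genes, 5 had a peak. INHBC, the beta C subunit made mainly in liver, went the other way from INHBB in value, where the sgNS lists gave 17.7 and 12.3 and the sgMETTL1 lists 5.33 and 7.4. The guides did not overlap, as was so in this direction by deposited fold for 37.7% of the 4150 genes. The 4 strongest INHBC peaks shared at least 179 bases on chromosome 12 (57450754 to 57450932 in replicate 1 of sgMETTL1). Its rank score differed by -0.61 (SE 0.23) and did not pass limma's test (adjusted p = 0.508). INHBE, the beta E subunit, also a liver product, had 4.23 and 3.91 against 2.65 and 3.7, with overlapping percentiles of 80.2 and 80.8 against 89.8 and 76.0. INHA and INHBA, the alpha and beta A subunits, had no peak in any list.

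TGFB2, a TGF-beta ligand, was listed over the same 180 bases of chromosome 1 (218442645 to 218442824) in all 4 lists. Its folds there were 23.1 and 23.2 in the sgNS lists against 42.7 and 33.3 after knockout, and the -log10 p was also larger with sgMETTL1 (7.47 and 5.95 against 4.31 and 4.51). Its rank score differed by 0.51 (SE 0.18; adjusted p = 0.48 by limma). BMP6, the BMP ligand best known for driving hepcidin in the liver, had folds of 6.48 and 5.63 against 27.4 and 15.3, and its rank score differed by 1.24 (SE 0.22; adjusted p = 0.325 by limma). Like INHBB, BMP6 had strongest sgMETTL1 peaks that shared no base, but its -log10 p was larger with sgMETTL1 (6.68 and 4.71 against 3.95 and 3.96). The strongest sgNS peaks of BMP6 shared no base either, whereas those of INHBB shared 61. A fold rank that was higher with sgMETTL1 without overlap, as in TGFB2 and BMP6, was held by 20.0% of the 4150 genes. The share of genes with a larger -log10 p in both sgMETTL1 lists was not counted, and 78.9% had the reverse. GDF11, a ligand that also uses ACVR2A and ACVR2B, was in both sgNS lists (13.9-fold and 5.28-fold) and in neither sgMETTL1 list, as were 4.63% of all 6520 genes. Its peaks of 61 bases in the sgNS lists shared no base.

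Among type II receptors ACVR2A, which had been chosen for its high fold, stood well above its relatives by fold. BMPR2, the BMP type II receptor, had folds of 45.4 and 47.5 in the sgNS lists against 56.5 and 55.7 after knockout. ACVR2B, the closest relative of ACVR2A, had 10.7 and 11.5 against 10.1 and 9.72. TGFBR2, which binds TGF-beta itself, had 5.64 and 4.88 against 4.71 and 3.93. The order ACVR2A, BMPR2, ACVR2B, TGFBR2 held in all 4 lists with no overlap between neighbours, where each fold is a ratio of IP to input over the gene's own peak. By p the order differed, with TGFBR2 next after ACVR2A in every list. The -log10 p of TGFBR2 was 881 and 675 in the sgNS lists against 346 and 280 after knockout. That of BMPR2 was 173 and 124 against 109 and 131, and that of ACVR2B 141 and 145 against 49.3 and 60.6. AMHR2 had no peak.

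These receptors also differed in how their peaks were spread. BMPR2 had 8 to 10 peaks per list and 6 sites in all 4 lists, where a site joins peaks that share at least 1 base. ACVR2B had 4 to 7 peaks and 3 such sites. ACVR2A had 2 to 4 peaks and 1 such site. The long peak of sgNS replicate 2 bridged the pieces of the other lists. Those pieces also chained to each other, with base 147930018 as their only link to the terminal peaks. The upstream ACVR2A peak of 61 bases in sgNS replicate 2 was a site of its own.

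Type I receptors had lower folds throughout than ACVR2A, which had been chosen for its high fold. TGFBR1, the TGF-beta type I receptor, had 18.5 and 10.3 in the sgNS lists against 13.8 and 11.4 after knockout. ACVR1B, the main activin type I receptor, had 6.94 and 3.89 against 2.94 and 4.58, and ACVR1 had 3.7 and 5.44 against 4.21 and 3.03. In each of these 3 genes the percentiles of the guides overlapped. ACVR1C, ACVRL1 and BMPR1B had no peak, and BMPR1A had 1 list with a peak.

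Of 12 co-receptors and inhibitors outside the cell, 2 were in all 4 lists. TGFBR3, or betaglycan, which helps inhibin occupy the type II receptors, had folds of 11.2 and 9.45 against 8.03 and 7.06. FST, or follistatin, which traps activin, had 2.19 and 1.79 against 1.62 and 2.63, near the weak end of each list. CHRD, the BMP inhibitor chordin, was in both sgMETTL1 lists (9.14-fold and 8.33-fold) and in neither sgNS list, as were 1.52% of all genes, and its strongest peaks there shared 240 bases.

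Among SMADs, the effectors of the pathway, 5 of 8 were in all 4 lists and none passed. SMAD9, a BMP effector, had the highest folds, 43.5 and 41.3 in the sgNS lists against 27.4 and 24.2 after knockout, with no overlap. Of the 4150 genes, 37.7% had deposited folds that were lower with sgMETTL1 without overlap. SMAD3, an activin effector, had 10.6 and 17.4 against 11.9 and 11.8, and SMAD2, the other activin effector, had 6.94 and 11.8 against 10.7 and 6.05. SMAD5 had 4.74 and 12.7 against 8.8 and 6.01. For SMAD2, SMAD3 and SMAD5 the values of the guides overlapped.

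Of 17 regulators of SMADs and receptors, 11 were in all 4 lists. SKI, a repressor that binds SMADs, came nearest to ACVR2A in fold, at 133 and 166 in the sgNS lists against 134 and 113 after knockout, over strongest peaks of 4004 to 5707 bases. RNF111, a ubiquitin ligase that removes SKI, had 44.8 and 57.6 against 74.0 and 66.4. PPM1A, a SMAD phosphatase, had 17.2 and 31.7 against 14.8 and 22.2, and its strongest sgMETTL1 peaks shared no base. TRIM33 had 64.8 and 19.7 against 21.3 and 6.4, but the 6.4 came from another peak. At the site of its other strongest peaks the fold of sgMETTL1 replicate 2 was 5.21, and at the second site the folds were 3.8 and 2.84 against 3.93 and 6.4. The strongest peaks of ACVR1B, SMAD2 and CDKN2B likewise shared no base between the sgMETTL1 lists. NEDD4L, a ligase that degrades active SMADs, was named after its values were seen because its unadjusted p was under 0.05. Its folds were 3.42 and 3.7 against 1.79 and 2.06, and its rank score differed by -0.79 (SE 0.23; adjusted p = 0.415 by limma). USP15, a deubiquitinase of the receptors, was in both sgNS lists (20.8-fold and 6.34-fold) and in neither sgMETTL1 list, as were 4.63% of all 6520 genes. Its sgNS peaks shared no base.

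Of 12 transcriptional targets of the pathway, 5 were in all 4 lists. EOMES, a mesendoderm factor induced by activin and Nodal, had folds of 23.1 and 23.2 in the sgNS lists against 48.8 and 52.7 after knockout. Its strongest peaks shared at least 211 bases in every pair of lists, and its rank score differed by 0.75 (SE 0.19; adjusted p = 0.352 by limma). ID2, a BMP target, had 4.76 and 3.64 against 5.71 and 6.31 (rank score difference 0.65, SE 0.20; adjusted p = 0.436 by limma). The fold ranks of EOMES and ID2 were higher with sgMETTL1 without overlap, as were those of 20.0% of the 4150 genes. CDKN2B had 3.43 and 3.72 against 3.43 and 3.7. HAMP, which encodes hepcidin, had no peak.

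Tested site by site, the pathway gave no call either. limma was run on the 6003 sites held by all 4 lists and called 0 at an FDR of 5% (0.0%), with 628 (10.5%) at an unadjusted p under 0.05. The 33 pathway genes other than ACVR2A and INHBB had 58 such sites. Of these limma called 0, with 0.396 as the smallest adjusted p. An unadjusted p under 0.05 was reached by 8 (13.8%), 5 of them higher and 3 lower with sgMETTL1, where 5.41% and 5.05% of all sites were. With 2 lists per guide, the number of lists limits the precision of every comparison here, and the read depth behind a peak is unknown.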

How the data were processed

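RNA immunoprecipitation sequencing of Flag-QKI7 in HepG2 cells was analysed for input and IP samples of 2 guides, grouped by title. Per the submitters' processing notes, reads were mapped with STAR to GRCh38. How peaks were called, scaled and thresholded is not given in the sources used here. For every IP and its input the authors deposited a peak list of its own, without pooling replicates. Per the file headers each peak has a fold enrichment, which is a ratio, a p-value, and the logarithms of p and FDR, handled as a score because they exceed the range of log values.

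Coordinates are 1-based. Peaks of one gene and strand were joined into a site where exon blocks shared at least 1 base. The strongest fold of each gene (ties went to the smaller p) was ranked among the 4150 genes of all 4 lists and converted to a normal score. The guides were compared with limma 3.58.1 in R 4.3.3, two-sided, with Benjamini-Hochberg adjustment over all genes or sites and an FDR of 5%. Tables were made in Python 3.11.15 with pandas 2.3.3, scipy 1.17.1 and numpy 2.4.6, and figures with matplotlib 3.10.9. The overlap count and the fit were tested on simulated data. Gene names were looked up in RefSeq (GRCh38.p14) by symbol or older symbol, and 18 of 6520 did not match.

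The genes studied, the pathway list and the tests were chosen with earlier results of these data known. Named genes were every peak of ACVR2A and INHBB, up to 4 pathway genes per role with the best mean rank, pathway genes in both lists of 1 guide and neither of the other, and the 5 nearest genes. The values of 2 of these genes are not reported here, though the counts hold them. Alternatives were log2 folds, ranks by p, the mean of a gene's peaks, the replicate number as a block, 50% reciprocal overlap, an FDR of at most 0.1%, equal numbers of peaks (9388 per list), and leaving out each list. No sequence is shown, since the genome sequence was not used here.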

Additional observations from a re-analysis of the deposited data

How the results depend on the processing

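Limma called 0 genes and 0 sites at an FDR of 5% under every alternative run, including the log2 fold, ranks by p, 50% reciprocal overlap and the replicate block (380 genes at an unadjusted p under 0.05 with the block, smallest adjusted p = 0.473, range over the alternatives 0.104 to 0.575). Ranked by p, 849 genes and 1085 sites had an unadjusted p under 0.05, against 408 and 628 by fold. On log2 folds the median over all genes was -0.24. Without 1 list each, the called genes and sites also ranged from 0 to 0. Deviations of replicate 1 from the guide mean correlated at -0.002 across 4150 genes between guides. With 2 lists per guide this cannot decide whether replicate numbers pair the lists. The INHBB score difference was 1.74 on folds and 1.64 to 1.84 without 1 list each, but -0.19 when ranked by p. INHBB had been chosen for its higher fold in both sgMETTL1 lists, so leaving out a list could not change its direction on folds. The score difference of ACVR2A was -0.14 and ran from -0.33 to 0.06 without 1 list each. The 0.06 was without replicate 1 of sgNS, so the sign rested on that list. The direction of INHBC, TGFB2, BMP6, NEDD4L, ID2 and EOMES was kept in 48 of 48 alternatives. These genes were taken for an unadjusted p under 0.05 by limma. Their fold ranks did not overlap between guides, as in 20.0% of the 4150 genes (higher with sgMETTL1) and 22.7% (lower). The replicate block and leaving out a list therefore could not change the direction of these named genes. The size was not kept: NEDD4L went from -0.79 to -0.19 with the mean of its peaks, and by p ID2 went from 0.65 to 0.14 and INHBC from -0.61 to -0.21. The number of INHBB sites in all 4 lists went from 1 to 0 with 50% reciprocal overlap and to 0 at an FDR of at most 0.1%, and that of ACVR2A stayed at 1. Of the pathway genes in both sgNS and neither sgMETTL1 list, GDF11 and USP15, none was left at an FDR of at most 0.1%, where SMAD7 was the 1 such gene, and there were 0 among equal numbers of top peaks. CHRD kept its place in both settings.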
